A study of Mus musculus with 17 samples.

Results

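Myelo-dendritic progenitors (MDPs) without expression of VENUS, a yellow fluorescent protein, were compared with MDPs that express it. The comparison rests on 5 of the 17 arrays of the series, 2 of VENUS-negative MDPs (titled IRF8_neg_MDP, pools 1 and 2) and 3 of VENUS-positive MDPs (titled IRF8_PAC_MDP, pools 1 to 3). The arrays were chosen by these titles, and every gene measured by a probe set with 1 gene symbol was tested, 17097 genes in all. The VENUS-positive pools are described as MDPs of reporter mice, and the VENUS-negative pools only as MDPs without VENUS. Both groups carry the genotype label IRF8-deficient, and the labels do not say whether this means the reporter allele, so only VENUS names the groups here. Each of the 5 VENUS arrays held RNA of bone marrow cells sorted as lineage-, Sca1-, CD127-, CD117+ and MCSFR+, from mice of 6 to 10 weeks with no treatment named. The sources used here give neither the number of mice in a VENUS pool nor the promoter that drives VENUS. The other MDP groups, used below for 1 further comparison, were 3 wild-type pools and 3 pools labelled IRF8 knockout, each of 5 mice per the design text. The remaining arrays held 3 wild-type pools of spleen macrophages and 3 of spleen granulocytes. These mature cells are not compared here, but their arrays entered the fit.

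MDPs are bone marrow progenitors that give rise to monocytes, macrophages and dendritic cells, and the receptors for M-CSF (Csf1r) and FLT3 ligand (Flt3) mark this lineage. IRF8 is a transcription factor that acts with PU.1 on composite DNA sites in genes of monocytes and dendritic cells, and mice without it have few of these cells and many granulocytes. GATA1, GATA2, TAL1 and KLF1 serve the neighbouring branch of erythroid cells, megakaryocytes, mast cells and basophils, and GATA1 and PU.1 oppose each other's activity.

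All levels are log2 values that the authors made with RMA, so that 1 unit is a 2-fold difference. The lower quartile of the VENUS arrays lay at 3.21 to 3.29, and that of no array of the series was above 3.42. At or under that level a value lies near the background of the array, so a difference against it describes RMA values, and neither its size nor its rank measures a change in transcript. Of 125 called genes named below, 16 had such a mean in 1 group, namely Pf4, Mfsd2b, Ces2g, Cpa3, Ms4a2, Cd55, Shank3, Cavin2 and Gzmb in the VENUS-positive pools and Klf4, Aif1, Btla, Clec7a, Tlr1, Ms4a4b and Klrk1 in the VENUS-negative pools. Over all probe sets the VENUS-negative arrays correlated at r = 0.967, the VENUS-positive arrays at 0.959 to 0.971, and arrays of different groups at 0.938 to 0.951. Probe sets are not independent of each other. VENUS-positive pool 3 stood apart in sex-linked genes. Xist, the RNA of the inactive X chromosome, read 5.44, 4.86 and 11.65 in VENUS-positive pools 1 to 3 and 5.37 and 5.54 in the VENUS-negative pools. The Y-linked gene Eif2s3y read 6.87, 7.52 and 3.20 against 7.88 and 7.83. Differences below are VENUS-negative minus VENUS-positive in log2 units with limma's standard error (SE), and a gene was called at a Benjamini-Hochberg adjusted p under 0.05. A sorted pool is a mixture, so fewer cells of a type and less RNA per cell cannot be told apart.

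The genes of the sort and of the reporter's title were read first. Irf8 read 5.49 and 6.25 in VENUS-negative pools 1 and 2 and 10.72, 10.81 and 11.10 in VENUS-positive pools 1 to 3. All VENUS-negative values lay far below all VENUS-positive ones (difference -5.01, SE 0.46, adjusted p = 9.99e-06), and another Irf8 probe set gave -4.32. IRF8 stands in the titles of both groups, and whether the sort itself set this gene was not tested and cannot be told here. Csf1r, which encodes the M-CSF receptor used in the gate, read 5.09 and 4.83 against 8.05, 7.63 and 7.99, again without overlap (-2.93, SE 0.30, adjusted p = 2.26e-05). Kit, which encodes the gate marker CD117, read 8.20 and 8.38 against 6.62, 7.40 and 6.89 and was higher in the VENUS-negative pools (1.32, SE 0.26, adjusted p = 0.00603). This call was lost when VENUS-negative pool 2 was left out (adjusted p = 0.0583) and over only the 5 VENUS arrays (0.0757). Spi1, which encodes PU.1, read 6.48 and 6.23 against 7.75, 7.79 and 7.95 (-1.47, SE 0.18, adjusted p = 0.000107). The VENUS-negative cells thus met the gate by label, while the transcript of 1 of its defining receptors lay well below its level in the VENUS-positive cells. Ly6a and Il7r, which encode the excluded markers Sca1 and CD127, were not measured by a probe set with 1 symbol.

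Calls were made for 1003 of 17097 genes (5.87%), with 487 higher (2.85%) and 516 lower (3.02%) in VENUS-negative MDPs. Of these, 807 differed by at least 1 unit, and 61 rises and 38 falls by at least 3 units. The median difference of all genes was -0.01. The shares of called list members given below stand against 2.85% higher and 3.02% lower of all genes. Without overlap between the arrays of the groups were 4924 genes (28.8%), so with 2 against 3 pools separation alone is common. Of the called genes 1 overlapped, so a lack of overlap given below adds no support to a call. Without VENUS-positive pool 3, which differed in sex-linked genes, the fit called 948 genes (477 higher, 471 lower), 805 of which were among the 1003. Fits without 1 array at a time each called 732 to 948 genes, and 413 genes were called in every one of these fits. In a fit of only the 5 VENUS arrays, which has fewer arrays to estimate the spread, 37 of the 125 named genes were not called, 30 of which were also lost when some 1 array was left out. Of the 125, 52 were measured by further probe sets, and for 22 of these genes at least 1 such probe set was not called, as given beside each gene.

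**Figure D1:**
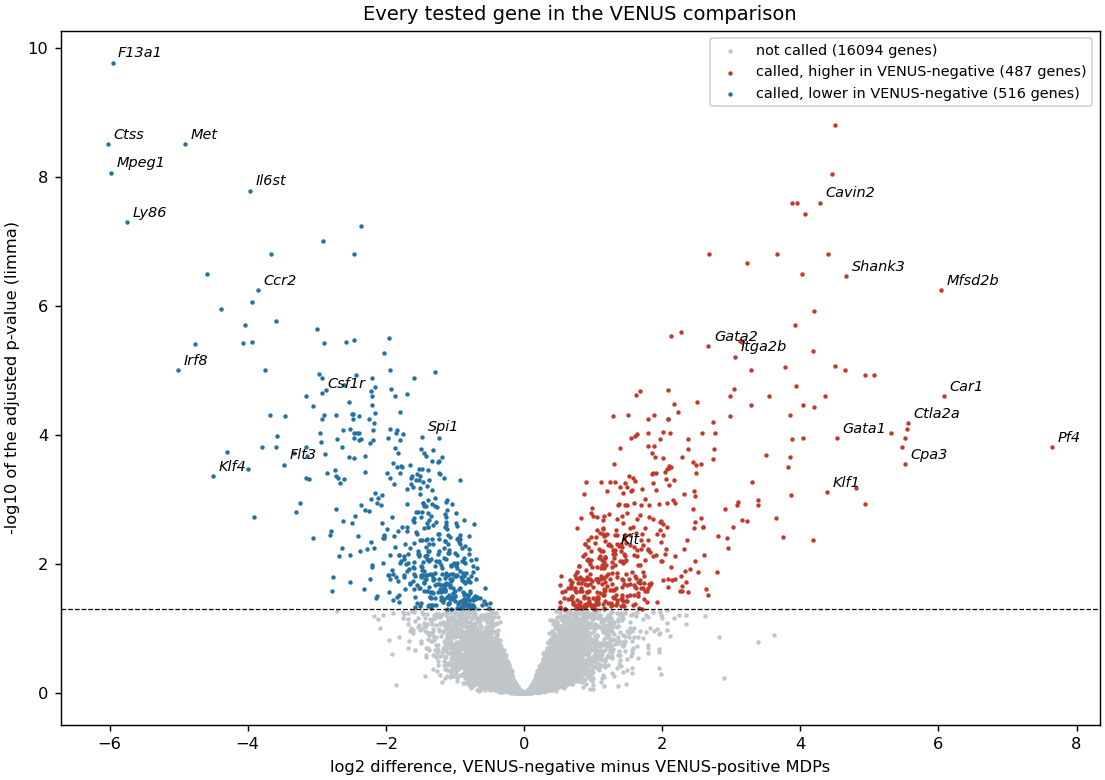
Log2 difference between VENUS-negative and VENUS-positive MDPs (horizontal axis) against -log10 of limma's adjusted p-value (vertical axis) for 17097 genes. Red points are the 487 genes called higher, blue points the 516 called lower, and the dashed line marks an adjusted p of 0.05. Pf4 lies at 7.65 on the right, a place that depends on VENUS-positive values under the lower quartile of their arrays, and Ctss at -6.02 on the left.

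The 15 largest rises on the RMA scale, 7 of which had a VENUS-positive mean at the background level given above, held genes of several kinds. Pf4, the platelet chemokine CXCL4, read 10.38 and 10.47 in the VENUS-negative pools and 2.68, 2.77 and 2.87 in the VENUS-positive pools (7.65, SE 0.97, adjusted p = 0.000154). The VENUS-positive values lay under the lower quartile of their arrays, so the size of this rise is set by the background. Car1, a carbonic anhydrase of red cells, read 11.003 and 10.33 against 4.75, 4.61 and 4.40 (6.08, SE 0.63, adjusted p = 2.54e-05). Mfsd2b, the exporter of sphingosine-1-phosphate in red cells and platelets, read 9.31 and 8.98 against 3.05, 3.14 and 3.12 (6.04, SE 0.42, adjusted p = 5.72e-07), again against background. In these 3 genes each group was tight and the groups were far apart. Ctla2a, a cysteine protease inhibitor gene, read 11.57 and 11.84 against 5.30, 5.60 and 7.55, with VENUS-positive pool 3 above the other VENUS-positive pools (5.56, SE 0.64, adjusted p = 6.56e-05). The carboxylesterase gene Ces2g (5.55), the mast cell carboxypeptidase gene Cpa3 (5.52), Ms4a2 (5.52), which encodes the beta chain of the high-affinity IgE receptor, and the thrombin receptor gene F2r (5.47) followed. Ermap, an erythroid membrane protein gene, differed by 5.32, and Cd55, which encodes a complement inhibitor of the cell surface, by 5.07. The muscle LIM protein gene Csrp3 (4.94), the water channel gene Aqp1 (4.94), the carbonic anhydrase gene Car2 (4.81), the synaptic scaffold gene Shank3 (4.67) and the sodium pump subunit gene Atp1b2 (4.65) completed the 15 largest rises. All 15 kept their call without any 1 of the 5 arrays, with the highest adjusted p at 0.0244 for Aqp1 without VENUS-negative pool 1.

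The 15 largest falls, among which Klf4 and Aif1 had a VENUS-negative mean at the background level, were likewise of several kinds. Ctss, the cathepsin that cleaves the invariant chain of MHC class II, read 3.68 and 4.19 in the VENUS-negative pools and 9.70, 10.16 and 10.00 in the VENUS-positive pools (-6.02, SE 0.25, adjusted p = 3.16e-09). Mpeg1, which encodes the pore-forming protein perforin-2, read 4.21 and 3.75 against 9.65, 9.93 and 10.29 (-5.98, SE 0.27, adjusted p = 8.68e-09). F13a1, the gene of the A chain of coagulation factor XIII in monocytes and platelets, read 4.26 and 4.63 against 10.09, 10.65 and 10.45 (-5.95, SE 0.18, adjusted p = 1.72e-10). Its fall had the smallest adjusted p among the named genes, and in all 3 genes the gap between groups was many times the spread within them. Ly86, whose product MD-1 pairs with the Toll-like receptor RP105, read 4.17 and 4.84 against 9.94, 10.63 and 10.19 (-5.75, SE 0.32). Next to Irf8 followed Met (-4.91), the hepatocyte growth factor receptor gene, Ifi209 (-4.76), an interferon-inducible gene of the PYHIN family, Ms4a6c (-4.59) and Klf4 (-4.50), a transcription factor gene of monocytes. Klf4 read 3.37 and 3.23 against 7.28, 7.48 and 8.66, its highest value in VENUS-positive pool 3. Ctsh (-4.38), a cathepsin gene, Aif1 (-4.30), which encodes the macrophage protein IBA1, Ahnak (-4.06), Tifab (-4.03), the calcium-binding protein gene S100a4 (-4.00) and Il6st (-3.96), which encodes the shared receptor chain gp130, completed the 15 largest falls. The fall of Ahnak differed between its probe sets, the others of which gave -0.94, -0.41 and -0.57, and only the first of these was called. Each of the 15 was called without any 1 of the 5 arrays, with the highest adjusted p at 0.00618 for S100a4.

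**Figure D2:**
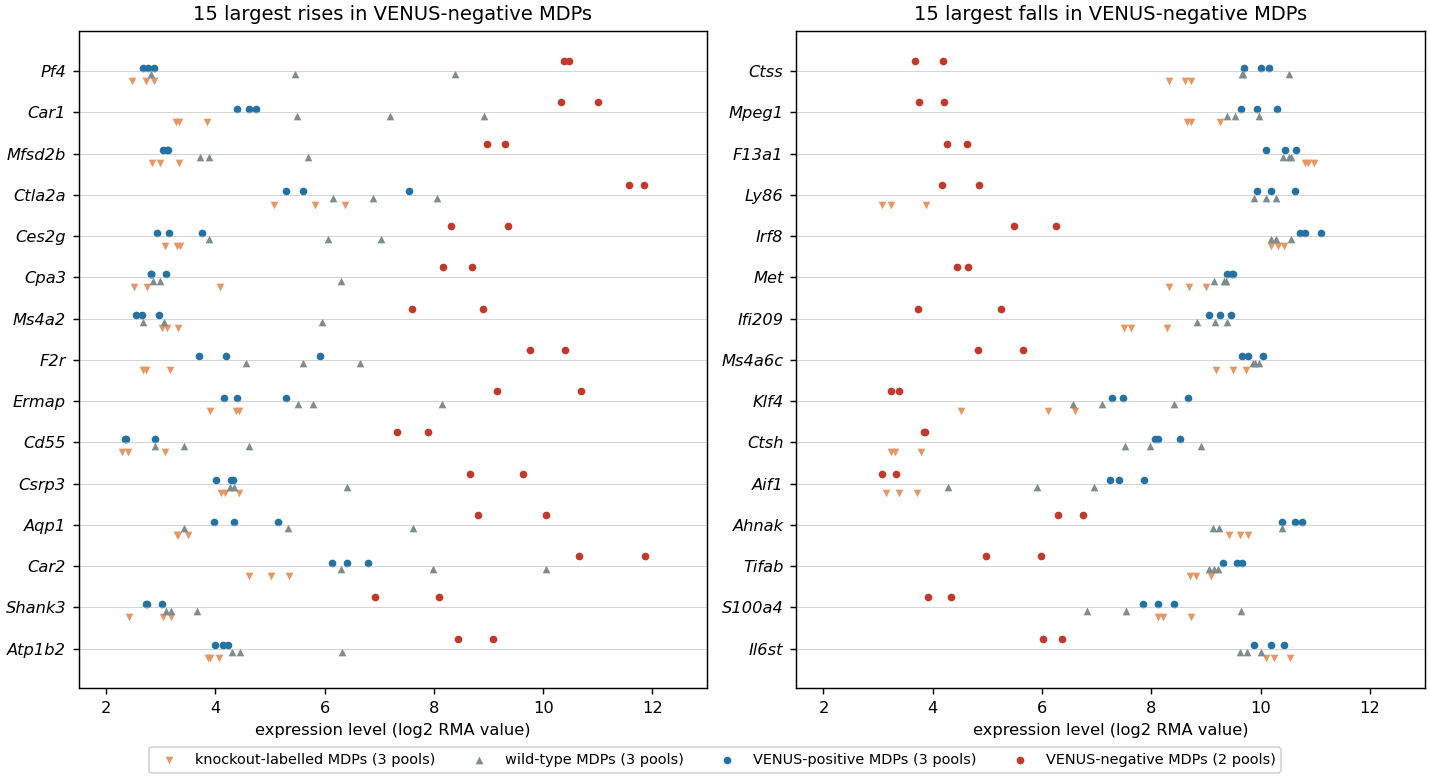
Expression level (log2 RMA value, horizontal axis) of the 15 largest rises (left) and 15 largest falls (right) in each MDP pool, 1 point per pool. Red circles are the 2 VENUS-negative pools, blue circles the 3 VENUS-positive pools, grey and orange triangles the 3 wild-type and 3 knockout-labelled pools. The genes were chosen among those whose red and blue points do not overlap, so the separation in each row is not a result. For Pf4 the wild-type pools spread from 2.82 to 8.40 while the red points lie at 10.38 and 10.47.

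The promoters of Irf8 and of 5 of the largest changes are shown, 2 rises (Pf4 and Mfsd2b) and 3 falls, so that the sequences before the starts of genes that rose and of genes that fell can be compared. Car1 is not shown, since the table used here gave no entry for it. Each sequence is the 250 bases before the transcription start, from RefSeq on GRCm38.p6, given 5′ to 3′ on the gene's strand. Capitals mark matches on either strand to 4 motifs. The GATA motif was AGATAA, with T also taken as its first letter and G as its last, and the others were PU.1 (GAGGAAGT), an ETS-IRF composite (GGAANNGAA) and an interferon response element (GAAANNGAA). The last motif can overlap the composite. Irf8 lies at chr8:120736108-120736357 on the plus strand, Pf4 at chr5:90772185-90772434 (plus), Mfsd2b at chr12:4874360-4874609 (minus), Ctss at chr3:95526536-95526785 (plus), Mpeg1 at chr19:12460520-12460769 (plus) and F13a1 at chr13:37050245-37050494 (minus). Irf8 and F13a1 have 2 starts in the table, of which 1 is shown.
Irf8: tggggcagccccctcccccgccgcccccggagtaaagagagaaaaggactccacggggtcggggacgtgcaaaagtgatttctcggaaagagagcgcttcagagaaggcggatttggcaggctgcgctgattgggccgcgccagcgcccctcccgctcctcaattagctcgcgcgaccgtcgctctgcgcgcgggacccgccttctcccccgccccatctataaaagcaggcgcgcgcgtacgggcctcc
Pf4: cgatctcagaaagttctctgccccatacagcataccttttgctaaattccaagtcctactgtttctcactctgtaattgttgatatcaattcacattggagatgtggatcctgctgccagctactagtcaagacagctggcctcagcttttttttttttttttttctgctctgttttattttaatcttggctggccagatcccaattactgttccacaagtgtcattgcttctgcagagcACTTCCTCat
Mfsd2b: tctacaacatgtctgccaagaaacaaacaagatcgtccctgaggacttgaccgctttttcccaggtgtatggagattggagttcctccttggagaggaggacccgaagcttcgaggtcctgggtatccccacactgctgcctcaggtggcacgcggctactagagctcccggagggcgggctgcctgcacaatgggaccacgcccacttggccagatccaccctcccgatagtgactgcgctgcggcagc
Ctss: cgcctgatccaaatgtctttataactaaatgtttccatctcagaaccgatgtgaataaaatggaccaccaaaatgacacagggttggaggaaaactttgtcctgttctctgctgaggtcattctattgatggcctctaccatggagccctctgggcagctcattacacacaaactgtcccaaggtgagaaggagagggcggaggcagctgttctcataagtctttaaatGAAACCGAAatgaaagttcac
Mpeg1: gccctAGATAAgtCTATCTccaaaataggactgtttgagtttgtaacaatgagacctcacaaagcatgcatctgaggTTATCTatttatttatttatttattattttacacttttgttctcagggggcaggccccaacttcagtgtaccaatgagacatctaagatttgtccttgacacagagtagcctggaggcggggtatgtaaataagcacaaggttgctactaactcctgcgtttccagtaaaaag
F13a1: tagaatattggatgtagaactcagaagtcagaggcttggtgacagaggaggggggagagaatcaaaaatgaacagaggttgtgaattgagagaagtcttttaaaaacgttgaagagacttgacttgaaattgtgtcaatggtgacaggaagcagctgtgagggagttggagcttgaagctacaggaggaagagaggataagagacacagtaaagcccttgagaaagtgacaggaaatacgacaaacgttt
The Pf4 window held a PU.1 motif, read as ACTTCCTC on this strand, 10 bases before the start. Ctss held an interferon response element, GAAACCGAA, 21 bases before the start, and Mpeg1 held 3 GATA motifs at 245, 237 and 173 bases. Irf8, Mfsd2b and F13a1 had no match to these letters in this window. Of all 17065 promoters of 13605 tested genes, 20.3% held a GATA motif, against 23.0% of 500 promoters of genes called higher and 16.8% of 537 promoters of genes called lower. The PU.1 motif was in 2.37% of all promoters, 2.00% of those of genes called higher and 5.03% of those of genes called lower. The ETS-IRF composite was in 6.27%, 5.00% and 5.40%, and the interferon response element in 6.30%, 6.40% and 7.26%, in the same order. These shares are descriptions and were not tested.

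Among transcription factor genes of the erythroid and megakaryocyte branch, 11 of 24 measured were called higher in VENUS-negative MDPs (45.8%), 0 lower and 13 neither, with a median difference of 0.79. Gata1, the central activator of red cell and platelet genes, read 9.58 and 8.75 against 5.15, 4.54 and 4.23 (4.53, SE 0.55, adjusted p = 0.000111). Klf1, an activator of globin and red cell membrane genes, read 9.46 and 8.87 against 5.41, 3.90 and 5.03 (4.39, SE 0.67, adjusted p = 0.000771). Gata2, active in stem cells, mast cells and early progenitors, read 8.75 and 8.71 against 6.00, 6.47 and 5.72 (2.67, SE 0.23, adjusted p = 4.27e-06). For each of the 3 genes the lowest VENUS-negative value was more than 2 log2 units above the highest VENUS-positive one. Gfi1b (3.94), a repressor needed for red cells and platelets, Tal1 (3.23), the GATA1 partner, and Ikzf2 (2.49), which encodes the zinc finger protein Helios, were also called. Fits without 1 array called 8 to 10 of the 24.

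Of 39 transcription factor genes of myeloid fate, 9 were called lower (23.1%) and 0 higher (median -0.27). Besides Spi1 and Klf4, Nfil3, which is required for several innate lymphoid and dendritic cell types, read 3.84 and 5.14 against 7.28, 6.90 and 7.499 (-2.73, SE 0.38, adjusted p = 0.000349). Bach2, a repressor of lymphoid and myeloid differentiation genes, read 5.72 and 6.36 against 7.58, 7.35 and 7.71 (-1.51, SE 0.23), with other probe sets at -1.97 and -0.52, the latter not called. The groups did not overlap in either gene. Mitf (-1.64), a lysosome and mast cell regulator, Cebpb (-1.54), a factor of monocytes and emergency granulopoiesis, and Klf2 (-1.49) were called less firmly. Other probe sets gave -0.11 for Mitf and -0.29 and -0.29 for Cebpb, none of them called. Mitf had an adjusted p of 0.0672 without VENUS-positive pool 2, 0.0827 without VENUS-negative pool 1 and 0.131 without VENUS-negative pool 2. The adjusted p of Cebpb was 0.0677 and 0.064 without VENUS-positive pools 1 and 2 and 0.0941 and 0.127 without VENUS-negative pools 1 and 2, and that of Klf2 was above 0.05 without any 1 of the 5 arrays (0.074 to 0.214). Without VENUS-positive pool 2 or VENUS-negative pool 1 only 5 of the 39 were called lower, and 6 without VENUS-negative pool 2. Among 8 interferon regulatory factor genes, Irf8 fell and Irf3, the activator of the early interferon-beta response, rose from 7.33, 6.77 and 7.28 to 8.99 and 9.01 (1.88, SE 0.24, adjusted p = 0.000148). The 2 other Irf3 probe sets gave 0.65 (adjusted p = 0.241) and 0.45 (0.283) in limma's fit of all probe sets, so its call rests on 1 of 3. The calls were 12.5% of the 8 each way, the median of the 8 was -0.43, and without VENUS-positive pool 1 the fit called 3 of them lower.

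Receptor genes for growth factors were called in both directions. Of 33 cytokine and growth factor receptor genes, 11 were called lower (33.3%) and 4 higher (12.1%), with a median of -0.65. Met read 4.65 and 4.45 against 9.49, 9.48 and 9.39, the narrowest VENUS-positive range among the receptors named here (-4.91, SE 0.21, adjusted p = 3.16e-09). Il6st read 6.37 and 6.03 against 10.42, 9.88 and 10.18 (-3.96, SE 0.20), and Il6ra, which encodes its IL-6-binding partner, read 6.26 and 6.99 against 9.03, 8.77 and 8.67 (-2.19, SE 0.22), with another probe set at -1.03 (not called). The genes of both chains of the IL-6 receptor were thus lower, without overlap. Flt3, the receptor gene of the dendritic cell growth factor FLT3 ligand, read 5.33 and 5.14 against 8.17, 8.49 and 9.46 (-3.47, SE 0.47, adjusted p = 0.000291). In the other direction Epor, the erythropoietin receptor gene, read 9.23 and 7.54 against 3.89, 4.42 and 4.23 (4.205, SE 0.45, adjusted p = 3.68e-05). VENUS-negative pool 1 was the higher of the 2, and both lay above every VENUS-positive pool. Without VENUS-negative pool 2 the list had 2 higher calls in place of 4. Of 14 chemokine receptor genes 2 were called lower (14.3%, against 3.02% of all genes) and 0 higher (median 0.07). Ccr2, which lets monocytes leave the bone marrow, read 3.52 and 3.79 against 7.51, 7.001 and 7.996 (-3.85, SE 0.27, adjusted p = 5.72e-07), with other probe sets at -3.89, -3.45 and -1.12, the last not called. Cx3cr1, the fractalkine receptor gene of monocytes, differed by -1.94 (adjusted p = 0.00717, and 0.0733 without VENUS-negative pool 1).

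Of 24 measured erythroid membrane and globin genes, 9 were called higher (37.5%), 0 lower and 15 neither (median 1.43), and the VENUS-negative pools differed in them. Aqp1 read 10.05 and 8.80 against 3.97, 5.14 and 4.34 (SE 0.79, adjusted p = 0.00116), and Ermap 10.70 and 9.16 against 4.39, 4.16 and 5.29 (SE 0.63, adjusted p = 9.49e-05). Car2 read 11.86 and 10.66 against 6.40, 6.13 and 6.80 (SE 0.72, adjusted p = 0.000655). In each of these, as in Epor, VENUS-negative pool 1 was above pool 2 by more than 1 unit. The globin gene Hba-a1 was not called, with 11.94 and 9.41 against 9.60, 8.70 and 10.74, groups that overlap. Without VENUS-negative pool 1 the fit called 7 of the 24 with a median of 0.40, and without VENUS-negative pool 2 it called 15 with a median of 2.36. Of 24 heme synthesis and iron genes, 4 were called higher (16.7%) and 0 lower (median 0.73). These were Blvrb (2.79), a biliverdin reductase gene, Ppox (1.68), an enzyme gene of heme synthesis, Abcg2 (1.35), a porphyrin exporter gene, and Abcb10 (1.31), a mitochondrial transporter gene. Without VENUS-negative pool 1 none of the 24 was called, with adjusted p-values of 0.216, 0.311, 0.137 and 0.357 for these 4, and without VENUS-negative pool 2 the fit called 9. Leaving out a VENUS-positive pool also ended the call of Ppox (0.0558 and 0.0604 without pools 1 and 2) and of Abcb10 (0.0688 to 0.0808), and the other Abcb10 probe sets gave -0.23 and 0.07, neither of them called.

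Of 27 measured megakaryocyte and platelet genes, 11 were called higher (40.7%), 0 lower and 16 neither (median 0.88). Cavin2, a caveolar protein gene abundant in platelets, read 7.23 and 7.37 against 3.24, 3.13 and 2.70 (4.28, SE 0.22, adjusted p = 2.53e-08), and its other probe sets, also called, gave 1.89 and 1.07. Itga2b, which encodes the platelet integrin chain CD41, read 7.91 and 8.32 against 5.25, 4.97 and 4.97 (3.05, SE 0.27, adjusted p = 6.16e-06). Vwf, the von Willebrand factor gene, read 6.07 and 7.39 against 4.24, 4.74 and 4.26 (2.32, SE 0.36, adjusted p = 0.000833, and 0.0543 over only the 5 VENUS arrays). The groups stayed apart in all 3, and in Vwf pool 2 was above pool 1, the reverse of the red cell genes. F2r read 9.77 and 10.39 against 5.92, 4.19 and 3.71 (SE 0.69), and F2rl2, which encodes a related thrombin receptor, differed by 1.87 (adjusted p = 0.00756, and 0.0841 without VENUS-negative pool 1). Fits without 1 array called 11 to 13 members, the latter without VENUS-negative pool 1, where the median was 1.40. In VENUS-positive MDPs, 8 of the 27 had a mean under the lower quartile, against 2 in VENUS-negative MDPs.

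Of 26 measured genes of mast cells, basophils and eosinophils, 7 were called higher (26.9%) and 0 lower (median 0.35), and 12 had a mean under the lower quartile in VENUS-positive MDPs, against 6 in VENUS-negative MDPs. Cpa3 read 8.16 and 8.70 against 2.82, 3.09 and 2.82 (SE 0.75, adjusted p = 0.000285), and Ms4a2 read 7.59 and 8.90 against 2.55, 2.98 and 2.66 (SE 0.67, adjusted p = 0.000114). Hdc, the histamine-producing enzyme gene, read 8.94 and 8.93 against 6.68, 4.95 and 6.09 (3.03, SE 0.54, adjusted p = 0.00262). These 3 were high in both VENUS-negative pools. Siglecf (2.91), a lectin gene of eosinophils, Lat (2.74), a signalling adaptor gene of T cells, mast cells and platelets, and the granzyme gene Gzmb (2.47) were called as well. Gzmb read 4.47 and 6.73 against 3.00, 3.25 and 3.16 and had an adjusted p of 0.149 over only the 5 VENUS arrays. Stem and early progenitor genes were called in both directions. Of 30 measured, 8 were called higher (26.7%) and 2 lower (6.67%), with a median of 0.35. Angpt1, a growth factor gene of stem cells and megakaryocytes, read 8.89 and 8.51 against 5.00, 5.42 and 3.56 (4.04, SE 0.43, adjusted p = 3.48e-05). The homeobox gene Meis1 (2.18, with another probe set at 1.26, not called) and the adhesion receptor gene Adgrg1 (1.79) rose, as did Ctla2a, while Flt3 and Cd34 (-1.56, SE 0.26, adjusted p = 0.00158), which encodes a surface marker of early progenitors, fell.

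Of 40 measured monocyte and macrophage genes, 17 were called lower (42.5%) and 0 higher (median -0.72), and fits without 1 array called 13 to 16. The mean level of the list was 4.89 and 4.98 in the VENUS-negative pools and 6.50 to 6.58 in the VENUS-positive pools. Aif1 read 3.08 and 3.33 against 7.41, 7.24 and 7.87 (SE 0.55, adjusted p = 0.000181), and S100a4 read 4.34 and 3.92 against 8.13, 7.85 and 8.41 (SE 0.55, adjusted p = 0.000341). In the VENUS-negative pools Aif1 lay at the background level and S100a4 near or under the array median. Both lay well above that median in every VENUS-positive pool. The MS4A genes, which encode 4-span membrane proteins, divided by member. Of 15, Ms4a6c (SE 0.31), Ms4a6b (-3.94), Ms4a4b (-3.68) and Ms4a4c (-2.02) were called lower (26.7%) and Ms4a2 higher (6.67%), with a median of -0.19. Ms4a6c read 4.82 and 5.65 against 9.66, 10.04 and 9.77, and Ms4a6b read 5.59 and 6.79 against 10.07, 10.39 and 9.94. Another probe set gave -0.60 for Ms4a6b and -0.24 for Ms4a4b, neither of them called, and the adjusted p of Ms4a4c was 0.0572 without VENUS-negative pool 2.

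Of 32 dendritic cell genes, 5 were called lower (15.6%) and 0 higher (median -0.10). Btla, an inhibitory receptor gene, read 3.19 and 3.40 against 7.80, 5.55 and 6.54 (-3.33, SE 0.43, adjusted p = 0.000189, and 0.065 over only the 5 VENUS arrays), and Kmo, an enzyme gene of tryptophan breakdown, read 4.21 and 4.69 against 7.22, 6.92 and 7.04 (-2.61, SE 0.26, adjusted p = 1.7e-05). These 2 were below the VENUS-positive range in both pools. Without VENUS-negative pool 1 only 2 of the list were called, and the adjusted p of Rab7b (-1.81), a late endosome GTPase gene, Upb1 (-1.74) and Itgax (-1.46), the gene of CD11c, was 0.0678, 0.0542 and 0.0566. Another Rab7b probe set gave -0.20 and was not called. Upb1 and Itgax also lost their calls without VENUS-negative pool 2 (0.129 and 0.115). Of 16 MHC class II presentation genes, 5 were called lower (31.2%) and 1 higher (6.25%), with a median of -0.47. Besides Ctss, these were the chaperone chain genes H2-DMb1 (-1.98, adjusted p = 0.0029, and 0.0689 over only the 5 VENUS arrays) and H2-DMb2 (-1.87, adjusted p = 0.000162), the ubiquitin ligase gene Marchf1 (-1.95) and the thiol reductase gene Ifi30 (-1.90), while H2-Ob (1.46), which encodes a chain of the inhibitor of that chaperone, rose. Fits without 1 array, other than VENUS-positive pool 1, called 3 of the 5. Marchf1 was lost without each array but VENUS-positive pool 1 (0.0698 to 0.186), Ifi30 without any 1 of the 5 (0.0679 to 0.255), and H2-Ob without VENUS-negative pool 2 (0.0719). Other Marchf1 probe sets gave -0.02 and -1.57, neither of them called.

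Of 35 cathepsin, cystatin and lysosome genes, 10 were called lower (28.6%), 0 higher and 25 neither (median -0.53). Ctsh read 3.87 and 3.84 against 8.13, 8.06 and 8.52 (SE 0.33, adjusted p = 1.13e-06). Psap, the precursor of the saposins that assist lipid breakdown, read 8.06 and 7.84 against 10.84, 11.28 and 10.32 (-2.86, SE 0.29, adjusted p = 2e-05). Cst3, the cystatin C gene, read 9.72 and 9.96 against 11.10, 10.93 and 11.46 (-1.32, SE 0.17, adjusted p = 0.000172). The 3 genes, named here in order of size, did not overlap between groups. The ceramidase gene Asah1 (-1.53, adjusted p = 0.000332, and 0.0649 over only the 5 VENUS arrays) and Scarb2 (-1.05), which encodes a lysosomal membrane receptor, were called too, though Scarb2 was lost when VENUS-positive pool 2 (0.0664) or VENUS-negative pool 1 (0.176) was left out and had another probe set at -0.41 (not called). Without VENUS-negative pool 1 the list had 6 calls, and its median was -0.30. Of 31 Toll-like receptor and innate sensing genes, 8 were called lower (25.8%), 0 higher and 23 neither (median -0.21). Ly86 and Cd180 (-2.02, adjusted p = 0.00361), the gene of RP105, both fell. Clec7a, the beta-glucan receptor gene, read 2.67 and 2.26 against 6.09, 6.23 and 5.81 (-3.58, SE 0.43, adjusted p = 0.000104), a difference against background, and Unc93b1, which carries nucleic acid-sensing Toll-like receptors to endosomes, read 4.65 and 3.68 against 7.52, 6.91 and 7.38 (-3.11, SE 0.45). Tlr2 (-1.54) lost its call without VENUS-negative pool 2 (0.0707), and Tlr1 (-1.50) without each array but VENUS-positive pool 2 (0.0627 to 0.233). Without either VENUS-negative pool 5 of the 31 were called.

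The list of Fc and complement receptor genes, which also holds complement inhibitors, had calls in both directions. Of 16 Fc and complement receptor genes 2 rose and 2 fell (12.5% each, median -0.14), and each fit without 1 array gave 2 rises and 2 falls. The rises were the complement inhibitors Cd55, which read 7.90 and 7.32 against 2.90, 2.35 and 2.37 (SE 0.48, adjusted p = 1.17e-05), and Cd59a, at 8.10 and 7.66 against 5.76, 5.10 and 5.90 (2.29, SE 0.30, adjusted p = 0.00022). The falls were Cd93 (-2.06), a C1q receptor-like gene of early progenitors, and Fcer1g (-1.96, SE 0.24, adjusted p = 0.000111), which encodes the gamma chain shared by Fc receptors. Fcer1g read 7.02 and 7.66 against 9.26, 9.06 and 9.58, so it moved opposite to Ms4a2, the gene of the beta chain of the IgE receptor. Of 7 phagocyte oxidase and perforin-2 genes 3 were called lower (42.9%, median -1.37), namely Mpeg1, the oxidase subunit gene Ncf4 (-2.30, SE 0.32, adjusted p = 0.000378) and Rac2 (-0.85), whose adjusted p was 0.0667 to 0.28 without each array but VENUS-positive pool 1. Without that pool 4 of the 7 were called. Of 29 leukocyte integrin and adhesion genes 6 fell (20.7%, against 3.02% of all genes) and 2 rose (6.90%, against 2.85%), with a median of -0.10. Itga2b led the rises, and Selplg, the P-selectin ligand gene, read 7.84 and 8.23 against 10.10, 9.71 and 10.07 (-1.93, SE 0.19, adjusted p = 1.98e-05). Icam1 (-1.83), Pecam1 (-1.45), Itga1 (-1.34) and Itgax fell less firmly, and without either VENUS-negative pool only 2 of the 29 were called lower (3 without VENUS-positive pool 1 and 4 without VENUS-positive pool 2). Icam1 was lost without VENUS-positive pool 1 (0.0675) or VENUS-negative pool 1 (0.29), Pecam1 without these (0.069 and 0.134) or VENUS-negative pool 2 (0.0739), and Itga1 without each array but VENUS-positive pool 3 (0.0869 to 0.207).

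Neutrophil granule gene lists held few calls, and at the share of all genes (5.87%) lists of this size would hold few as well. In the primary list 6.67% were called higher and 6.67% lower, against 2.85% and 3.02% of all genes. Of 15 primary granule genes 1 rose and 1 fell (median -0.36), Nkg7 (2.19, adjusted p = 0.00755, and 0.096 without VENUS-negative pool 2) and the glutathione transferase gene Mgst1. Mgst1 differed by -1.60 with another probe set at 0.13 (not called), and it lost its call without VENUS-positive pool 3 (adjusted p = 0.0832), VENUS-negative pool 1 (0.149) or VENUS-negative pool 2 (0.0924). Of 23 secondary and tertiary granule genes limma called 0 and 1 had an unadjusted p under 0.05 (median 0.02), and the smallest p-values were those of Il1b (0.58, adjusted p = 0.191) and Mmp8 (-0.92, adjusted p = 0.391). Interferon-stimulated genes were called both ways, 6 of 51 higher and 5 lower (11.8% and 9.80%, median -0.10). Ifi209 read 3.73 and 5.26 against 9.06, 9.46 and 9.26 (SE 0.40, adjusted p = 3.91e-06), and Ifi27l2a (-2.73, adjusted p = 0.000434) and the guanylate-binding protein gene Gbp3 (-2.13, adjusted p = 0.00112, and 0.0799 over only the 5 VENUS arrays) fell too. Ddx58, the gene of the RNA sensor RIG-I, read 6.38 and 6.57 against 4.42, 4.58 and 4.51 (1.97, SE 0.36, adjusted p = 0.00301), while its 2 other probe sets gave 0.86 (adjusted p = 0.135) and 0.20 (0.840) in limma's fit of all probe sets. The exonuclease gene Isg20 (2.26) and the chaperone gene Rtp4 (2.08) rose in the fit of all arrays, but the adjusted p was 0.297 for Isg20 without VENUS-negative pool 1 (0.0811 and 0.0867 without VENUS-positive pools 2 and 3), and 0.254 for Rtp4 without VENUS-negative pool 2 (0.0631 without VENUS-positive pool 2). Another Rtp4 probe set gave 0.18 and was not called. Without VENUS-positive pool 2 or VENUS-negative pool 2 the list had 3 rises, and without VENUS-negative pool 1 it had 4 rises and 3 falls.

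Of 39 cell cycle genes 2 were called lower (5.13%) and 0 higher (median -0.33), against 3.02% lower and 2.85% higher of all genes. With a share this near that of all genes, the 2 calls describe single genes and not the list. Ccnd1, the cyclin D1 gene, read 6.24 and 5.87 against 8.34, 8.04 and 8.35 (-2.19, SE 0.26, adjusted p = 8.49e-05), and the cell cycle inhibitor gene Cdkn1a differed by -1.47 (adjusted p = 0.0111, and 0.112 without VENUS-negative pool 2), with another probe set at -0.17 (not called). Without VENUS-negative pool 1 the list had 4 falls and a median of -0.66, and without VENUS-negative pool 2 it had 1 and a median of -0.07. Of 15 BCL2 family genes 3 fell (median -0.16), the death promoters Pmaip1 (-2.52) and Bid (-1.38) and the death inhibitor Bcl2 (-1.41). Without VENUS-negative pool 2 none of the 15 was called (0.096, 0.095 and 0.127), and Bcl2 was also lost without VENUS-positive pools 1 and 3 and VENUS-negative pool 1 (0.0575 to 0.0664). Another Bcl2 probe set differed by more, at -2.43 (adjusted p = 1.86e-05 in limma's fit of all probe sets), and those of Bid gave -0.76 and -0.87, neither of them called. Of 21 immediate early and stress genes 4 rose (19.0%) and 1 fell (4.76%), with a median of 0.27. Gadd45a, a stress gene that slows the cell cycle, read 7.23 and 6.80 against 3.89, 3.51 and 4.31 (3.10, SE 0.49, adjusted p = 0.00107), and Fosl2, an AP-1 subunit gene, read 5.33 and 5.20 against 6.95, 6.94 and 7.29 (-1.79, SE 0.19, adjusted p = 4.35e-05). The other Fosl2 probe set gave -0.26 (adjusted p = 0.751 in the fit of all probe sets). Dusp1 (1.62), Ier3 (1.59) and Ddit3 (1.38), a phosphatase and 2 stress response genes, rose less firmly. The call of Dusp1 was lost without VENUS-positive pool 1 (0.0838), VENUS-negative pool 1 (0.0751) or VENUS-negative pool 2 (0.161), that of Ier3 without VENUS-positive pool 1 (0.0699), VENUS-positive pool 2 (0.0737) or VENUS-negative pool 2 (0.215), and that of Ddit3 without VENUS-negative pool 1 (0.0533). Only 2 of the 4 rises were called without VENUS-positive pool 1, without VENUS-negative pool 1 or without VENUS-negative pool 2. Of 19 glycolysis genes, Pklr, the pyruvate kinase gene of red cells and liver, read 10.15 and 9.29 against 6.03, 5.87 and 5.91 (3.78, SE 0.34, adjusted p = 8.88e-06), whereas Pkm, the pyruvate kinase gene of most other cells, differed by -0.79 (adjusted p = 0.00371, and 0.0751 without VENUS-negative pool 1). The hexokinase gene Hk1 (1.53) was called as well, with adjusted p-values of 0.342 without VENUS-negative pool 1 and 0.106 and 0.0547 without VENUS-positive pools 1 and 3, and the median of the 19 was -0.07. Of the 19, 10.5% were called higher and 5.26% lower.

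Several further lists had 0 to 2 calls, and at the share of all genes (5.87%) lists of their size would hold few as well. The B-cell list held 16.7% lower and the NK-cell list 7.69% each way, against 3.02% lower and 2.85% higher of all genes. Limma called 0 of 20 ribosome biogenesis and MYC genes, with 2 at an unadjusted p under 0.05 (median 0.28), among which Myc was nearest to the threshold (0.66, adjusted p = 0.0526) and Nop56 followed (0.49, adjusted p = 0.207). Among 12 leukotriene and prostaglandin enzyme genes limma called 0, with 2 at an unadjusted p under 0.05 (median 0.14), led by Tbxas1 at 1.36 (adjusted p = 0.0922) and Pla2g4a at 0.73 (adjusted p = 0.255). Among markers of other cell types, Cd79b (-1.44) and Dntt (-1.34) of 12 B-cell genes were called lower (16.7%, median -0.19), and without either VENUS-negative pool neither was (adjusted p of 0.0858 and 0.101 for Cd79b and 0.18 and 0.159 for Dntt). Each VENUS-positive pool left out also took 1 of these calls, Cd79b without pool 2 (0.0518) and Dntt without pools 1 and 3 (0.0548 and 0.119). Of 13 NK-cell genes Nkg7 rose and Klrk1 fell (-1.94, adjusted p = 0.0168, and 0.129 without VENUS-negative pool 2, median -0.14), and without that pool neither was called. Klrk1 was also lost without VENUS-positive pools 1 and 3 or VENUS-negative pool 1 (0.0538 to 0.0604). Limma called 0 of 11 T-cell genes, with 1 at an unadjusted p under 0.05 (median -0.16), Trat1 at -0.47 (adjusted p = 0.197) and Cd4 at 0.23 (adjusted p = 0.678), and 0 of 12 stroma and endothelium genes, with 0 at an unadjusted p under 0.05 (median -0.01), Kdr at 0.25 (adjusted p = 0.667) and Lum at -0.16 (adjusted p = 0.777). The mean level of the stroma list was 3.86 and 3.80 in the VENUS-negative and 3.72 to 4.04 in the VENUS-positive pools, and that of the T-cell list 3.80 and 3.61 against 3.80 to 3.96. Among 4 sex-linked genes limma called 0, with 1 at an unadjusted p under 0.05 (median 0.997), and the nearest to the threshold were Uty at 1.14 (adjusted p = 0.168) and Eif2s3y at 1.99 (adjusted p = 0.503). Without 1 array, a fit called a ribosome biogenesis gene (without VENUS-positive pool 3), a leukotriene gene (without either VENUS-negative pool) or a sex-linked gene (without VENUS-positive pool 2), 1 in each.

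**Figure D3:**
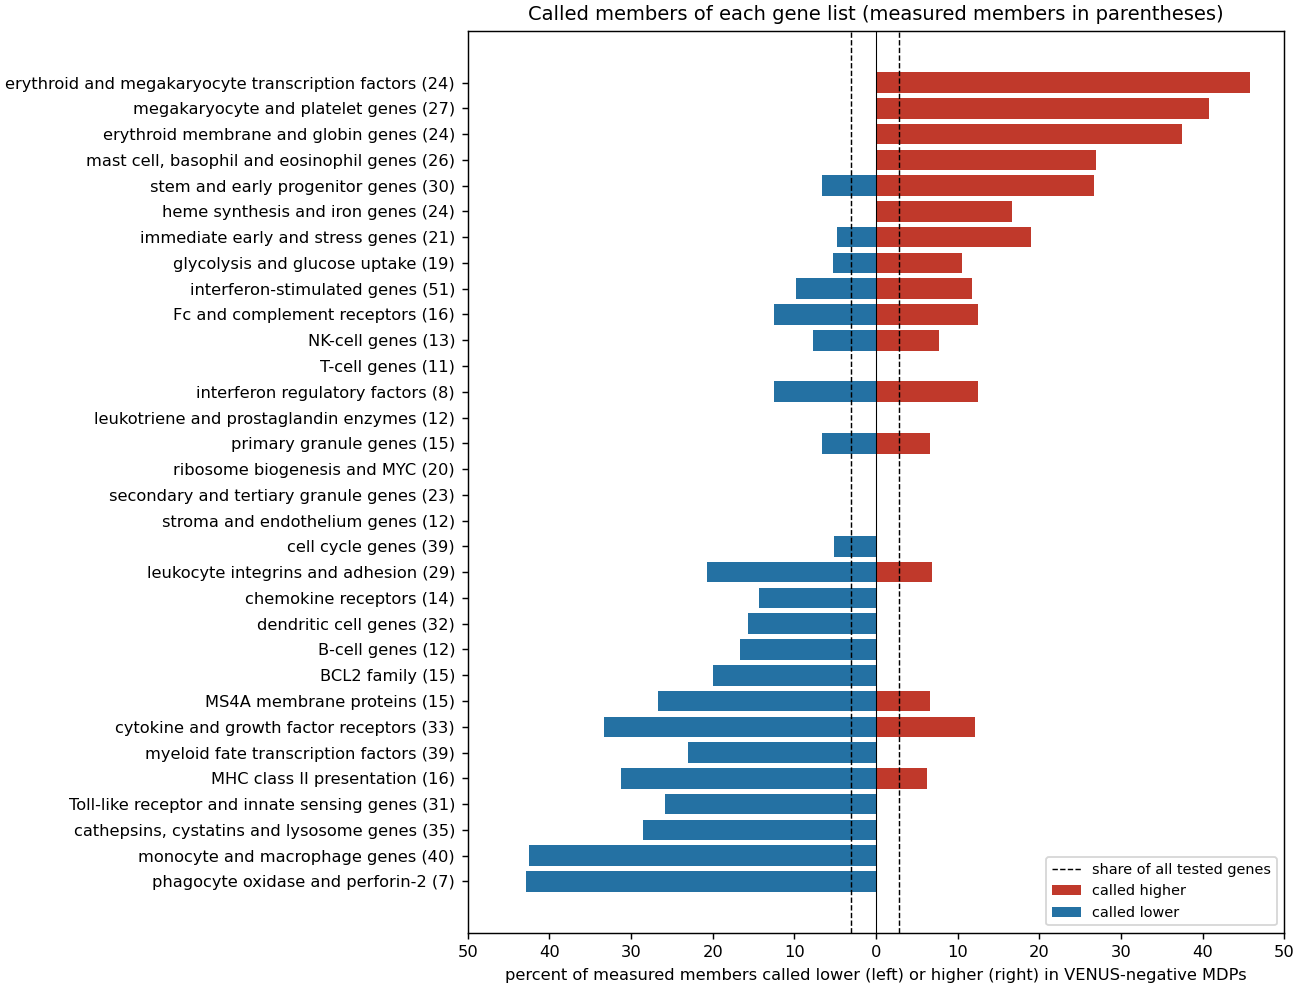
Percent of the measured members of each of 32 gene lists called higher (red, to the right) or lower (blue, to the left) in VENUS-negative MDPs, with the number of measured members in parentheses and dashed lines at the shares of all 17097 genes, 2.85% and 3.02%. Erythroid and megakaryocyte transcription factors lead the rises at 45.8% and the phagocyte oxidase list and monocyte genes the falls at 42.9% and 42.5%.

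The VENUS-negative pools were not alike. They differed by more than 1 log2 unit in 1086 genes (6.35% of those tested), 74 of them called higher and 57 called lower. The mean level of the 24 erythroid membrane and globin genes was 8.26 in pool 1 and 6.65 in pool 2, against 5.21 to 5.48 in the VENUS-positive pools. In pool 1, 18 of the 24 were more than 1 unit above pool 2, and 0 were as far below it. Pool 1 was therefore the richer in red cell transcripts, and both pools lay above every VENUS-positive pool. The mean of the heme list was 7.68 and 6.93 against 6.58 in all VENUS-positive pools, and that of the cell cycle list 8.28 and 7.73 against 8.27 to 8.56. The megakaryocyte list went the other way, at 5.45 and 5.85 against 4.16 to 4.29, with 6 members more than 1 unit higher in pool 2. Erythroid and megakaryocyte transcription factors (7.88 and 7.75), mast cell genes (5.05 and 4.96) and monocyte genes (4.89 and 4.98) differed little between these pools. The called genes with the widest gap were Hyal3, a hyaluronidase gene, at 8.02 and 4.54, the formin gene Diaph2 at 3.28 and 5.96, Ank1, the ankyrin of the red cell membrane, at 8.23 and 5.56, Gzmb, and the lipase gene Abhd12 at 5.65 and 3.40. Without VENUS-negative pool 1 the adjusted p was 0.204 for Hyal3 and 0.403 for Ank1 (0.0548 to 0.0729 for both without any 1 VENUS-positive pool). For Abhd12 it was 0.0507 when VENUS-negative pool 2 was left out, and for Diaph2 it was 0.142 over only the 5 VENUS arrays. Other probe sets of Abhd12 (-0.89) and of Ank1 (1.02 and 0.78) were not called. With 2 pools, which of them is the typical one cannot be told.

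**Figure D4:**
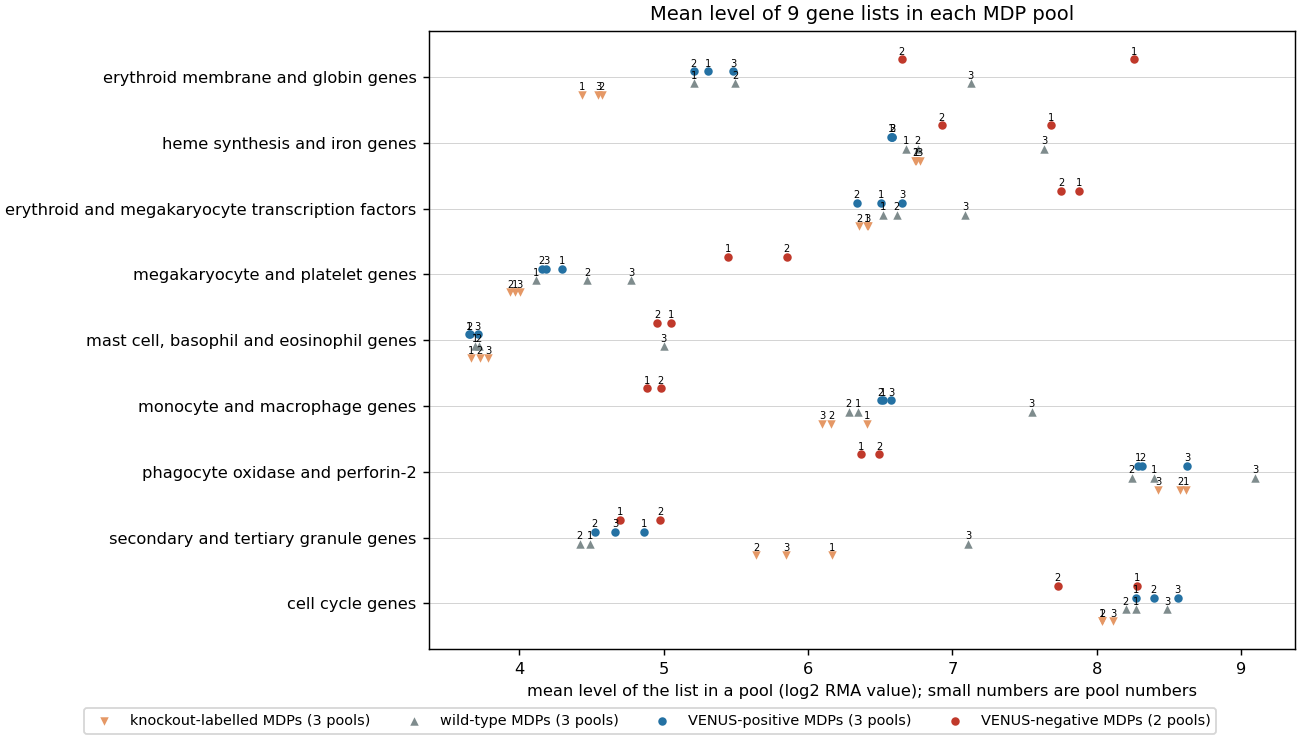
Mean level (log2 RMA value, horizontal axis) of 9 gene lists in each of the 11 MDP pools, 1 point per pool with its pool number. Red circles are VENUS-negative, blue circles VENUS-positive, grey and orange triangles wild-type and knockout-labelled pools. VENUS-negative pools 1 and 2 lie apart for the erythroid membrane list (8.26 and 6.65) and close together for the mast cell list (5.05 and 4.96), and wild-type pool 3 lies above the other wild-type pools in all 9 rows.

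The difference between VENUS groups was then set against the difference between knockout-labelled and wild-type MDPs, which shares no array with it. In the latter 155 genes were called (0.907%), 78 higher and 77 lower. The difference between the 2 differences was called for 615 genes (3.60%), 297 above 0 and 318 below, and 488 of the 1003 genes called between VENUS groups were among them. Called in both comparisons were 64 genes, 6.38% of the VENUS calls and 41.3% of the knockout calls, of which 8 were higher and 37 lower in both. Both comparisons take each gene's spread from the same fit, so their calls are not independent although they share no array. Wild-type pool 3 had higher levels of red cell, mast cell and granule genes than the other wild-type pools, with list means of 7.13, 5.00 and 7.11 against 5.21 and 5.496, 3.69 and 3.72, and 4.49 and 4.42. Without it 578 differences of differences were called, 520 of the 615 among them, and 63 genes were called in both comparisons, 51 of them among the 64.

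Several genes fell in both comparisons. Ly86 differed by -5.75 between VENUS groups and by -6.69 between knockout-labelled and wild-type pools, with knockout-labelled values of 3.87, 3.08 and 3.24 (difference of differences 0.94, adjusted p = 0.379). Ctsh differed by -4.38 and -4.70 (adjusted p = 0.909 for the difference), and Ms4a4c by -2.02 and -2.02. Without wild-type pool 3 the knockout difference of Ms4a4c was -1.60 and its difference of differences -0.43, not called. Selplg, Cd34, Bach2 and the thrombomodulin gene Thbd also fell in both, and for none of these was the difference of differences called, which does not show that the sizes are alike. Irf8 itself was not lower in the knockout-labelled pools (10.32, 10.42 and 10.18 against 10.27, 10.56 and 10.19), and its difference of differences was -4.98 (SE 0.62, adjusted p = 0.000248). F13a1 fell between VENUS groups and read 10.87, 10.97 and 10.81 in knockout-labelled against 10.41, 10.52 and 10.55 in wild-type pools (difference of differences -6.34, adjusted p = 4.32e-09). Mpeg1 (-5.23) likewise fell much further between VENUS groups.

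Other genes were called in opposite directions, 10 lower between VENUS groups and higher in knockout-labelled MDPs, and 9 the other way. Ccr2 read 9.86, 9.99 and 10.08 in knockout-labelled and 7.51, 7.21 and 8.13 in wild-type pools, a rise of 2.36 against the fall of -3.85 between VENUS groups (difference of differences -6.21, SE 0.36, adjusted p = 2.54e-07). Siglece, an inhibitory sialic acid receptor gene, rose by 3.24 in knockout-labelled MDPs and differed by -1.81 between VENUS groups (difference of differences -5.05). Its call between VENUS groups was lost without each array but VENUS-positive pool 2 (0.0873 to 0.198). Fosl2 (1.42 in knockout-labelled MDPs) was another of the 10, read in both comparisons from the probe set called between VENUS groups and not from the one at -0.26. In the other direction, Car1 and Car2 rose between VENUS groups and differed by -3.72 and -3.12 between knockout-labelled and wild-type pools (differences of differences 9.80 and 7.93). Pf4 (10.52), F2r (8.21) and Ces2g (7.97) had the other largest differences of differences above 0 but are not among the 9. Limma did not call their knockout differences of -2.87 (adjusted p = 0.2), -2.74 (0.0581) and -2.42 (0.077). Pf4 read 2.82, 5.46 and 8.40 in the wild-type pools and 2.48, 2.72 and 2.88 in the knockout-labelled pools, so that both of its differences are set against background. Without wild-type pool 3 the difference of differences of Pf4 was 9.10 and that of Car1 8.94, both still called.

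**Figure D5:**
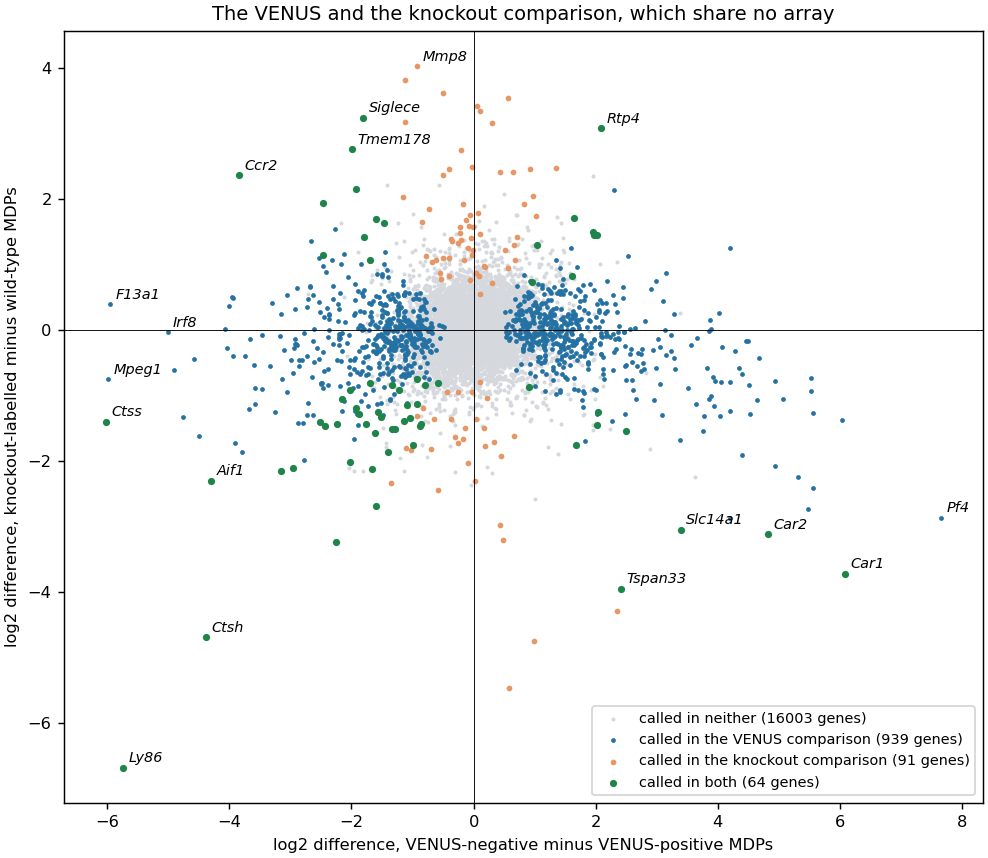
Log2 difference between VENUS-negative and VENUS-positive MDPs (horizontal axis) against that between knockout-labelled and wild-type MDPs (vertical axis) for each of 17097 genes. Green points are the 64 genes called in both, blue and orange points those called in the VENUS or the knockout comparison alone. Ly86 and Ctsh lie low in both, Ccr2 and Siglece at the upper left, and Car1 and Car2 at the lower right.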

How the data were processed

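Expression was measured on 17 Affymetrix arrays in 6 groups. The authors deposited log2 expression values made with Affymetrix Expression Console and RMA, per the submitters' processing notes; the sources used here give no versions and do not say which arrays entered 1 RMA run. RMA pulls low and high values together, so differences against low levels are compressed. Values ran from 1.69 to 13.5 over 45037 probe sets, array medians from 4.33 to 4.48, and 0 pairs of arrays were identical. Of the probe sets, 28898 had 1 gene symbol, 551 several and 15588 none. Entrez identifiers of 28689 were matched to RefSeq's gene table of GRCm38.p6, which changed 0 symbols. Each of the 17097 genes was read from its brightest probe set by the mean of the 17 arrays (7180 genes had several).

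Limma 3.58.1 in R 4.3.3 (lmFit, eBayes, two-sided) fitted a mean per group over all 17 arrays, so the 12 other arrays add to the estimate of the spread (residual degrees of freedom 11, prior 3.21). Those 12 include the pools of spleen macrophages and granulocytes, whose spread need not be that of MDPs. Over only the 11 MDP arrays the fit called 827 genes in place of 1003. P-values were adjusted by Benjamini-Hochberg over 17097 genes and called under 0.05. They reflect only how much the pools vary, and with 2 and 3 arrays the precision is limited by their number. The script was tested on simulated data. The genes compared, 33 gene lists and the rule for named genes were chosen with earlier results of these data known, so lists are described by counts and medians, with no test. Named are Irf8, Spi1 and gate genes, the 15 largest rises and falls without overlap between groups (predicted and RIKEN genes left out), up to 6 called members per list (or the 2 with the smallest p), the 5 largest differences of differences each way and the 5 widest gaps between VENUS-negative pools. Hba-a1, Xist, Thbd and list members named beyond these, and the opposite calls, were chosen after their values were seen. Alternatives were other sets of arrays, a pool-number block, a low-signal filter, other probe set rules, median centring, a trended robust prior, array weights and leaving out each array; leaving out wild-type pool 3 was added after seeing the data.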

Additional observations from a re-analysis of the deposited data

How the results depend on the processing

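The fit of only the 5 VENUS arrays called 459 genes, 215 higher and 244 lower, of which 430 were among the 1003. With the pool number as a replicate block those arrays gave 98 calls, 51 higher and 47 lower, 97 of them among the 1003. The labels name no batch, so whether pools of the same number were made together is not known, and VENUS-positive pool 3 is unpartnered. The deviations of pool 1 from the group means correlated at -0.0018 and those of pool 2 at 0.0907. With 2 VENUS-negative pools the deviations are equal and opposite, so these values cannot show whether pools were paired. Leaving out 1 VENUS array gave 732 to 948 calls, 384 to 477 higher and 348 to 473 lower, of which 580 to 805 were among the 1003. The fit of the 11 MDP arrays called 827 genes, the low-signal filter 1087 of 10718, the probe set with the largest variance 1018, median centring 989 (435 higher, 554 lower), the trended robust prior 1015, array weights 903, and leaving out wild-type pool 3 1055. The difference of differences was called for 430 genes over the 11 MDP arrays and for 478 to 630 with 1 VENUS array left out. Among the 1003 genes the sign turned in none of these fits, except for 14 genes with the largest-variance probe set. With that probe set Abcb10 differed by -0.23 (adjusted p = 0.904). All but 1 of the 1003 genes had no overlap between groups, so leaving out 1 array could not turn their sign. Fits that change only the other groups or the prior keep the same VENUS group means, so the unchanged signs are no support. Of 866 other probe sets of called genes 88.6% had the same sign, and 1 was called in the opposite direction, for Gna11 (0.63 against -0.9995). Among 125 named called genes, 44 were not called when some 1 array was left out. Where a change falls to levels near the lower quartile, its size is limited by the background of the array.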
